A study of Mus musculus with 12 samples.

Results

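The 10 genes described here, Coq2, Coq3, Coq4, Coq5, Coq6, Coq7, Coq8a, Coq9, Coq10a and Coq10b, are mouse genes named for the synthesis and handling of coenzyme Q. They were chosen by symbol, and not by their values, from a count table of 55573 genes. RNA was sequenced from cultured adipocytes of mice on a C57BL/6 background (C57BL/6J in the methods), grown out of the SVF (stromal vascular fraction), the mixed non-adipocyte cells of digested subcutaneous fat. The mice carried wild-type PPARγ (WT), T166A (TA), where threonine 166 of PPARγ is replaced by alanine and cannot be phosphorylated, or T166D (TD), where aspartic acid mimics the phosphorylated state. The mutant alleles were homozygous and global, so every cell of the culture carried them, and each genotype had 4 libraries. All cultures received the same medium with insulin (850 nM) and triiodothyronine, with IBMX (0.5 mM), dexamethasone and indomethacin (125 nM) for the initial 4 days, and were harvested on day 8. The age of the mice and the source of each replicate, whether mouse, pool or culture dish, are not given in the sources used here, so the p-values measure the spread between these libraries, which may be technical.

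Coenzyme Q is a lipid of the inner mitochondrial membrane that carries electrons from the dehydrogenases of the respiratory chain to complex III. It consists of a quinone ring made from tyrosine and a long isoprenoid tail made by the mevalonate pathway, and the enzymes that modify the ring work as a complex at the matrix side of the membrane. PPARγ is the nuclear receptor that drives adipocyte differentiation, and adipocytes gain mitochondria, and with them the machinery for coenzyme Q, as they mature.

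Of the 10 genes, 8 were lower in TD than in WT, where 29.2% of all genes tested passed the test, 14.2% of them all being lower. The coenzyme Q genes as a list had a median log2 fold change of -0.56, where the median of all genes tested was 0.011. The genes that fell were Coq3, Coq4, Coq5, Coq6, Coq7, Coq8a, Coq9 and Coq10b, whereas Coq2 and Coq10a did not pass the test. Coq8a fell most, from 93.8 ± 5.75 CPM (counts scaled to a common normalized library size; mean ± SD, n = 4) in WT to 51.8 ± 6.29 in TD. TA lay closer to WT for most members. Coq5 was the 1 member that passed the test in TA against WT, where 11.1% of all genes tested did. The adipocyte markers were lower in TD as well. When the libraries were scaled to those markers, an alternative chosen after their levels had been seen, the median of all genes rose by 0.515 for TD against WT and that of the members was -0.039.

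The statistic throughout is edgeR's quasi-likelihood test on the deposited counts, fitted to all 12 libraries and 15117 genes with Benjamini-Hochberg adjustment over those genes, and a call is an adjusted p under 0.05. All 10 coenzyme Q genes passed the filter on low counts. Library totals ran from 16553324 to 20324286 counts, and the 10 genes had from 81 counts (Coq4, TD replicate 4) to 3174 counts (Coq9, WT replicate 1) in a library. The mutated gene itself, Pparg, had 330.3 to 372.7 CPM in WT, 321.9 to 427.8 in TA and 209.8 to 257.8 in TD (log2 fold change of TD against WT -0.58, adjusted p = 0.000429). A point mutation does not remove the transcript, so these counts do not check the genotype labels.

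The labelled cell type was checked with 8 adipocyte markers (Adipoq, Fabp4, Plin1, Plin4, Cidec, Lipe, Pnpla2 and Retn), all of which were present in every library. Their summed level was 15100 to 17600 CPM in WT, 15100 to 20800 in TA and 10100 to 11900 in TD, and 7 of the 8 were lower in TD than in WT. Fibroblast and preadipocyte markers summed to 9040 to 12300, 10200 to 18400 and 15500 to 23400 CPM, with 5 of 8 higher in TD than in WT and Dlk1 at 0 in 11 libraries. Endothelial markers summed to 23.7 to 50.6, 45.2 to 79.6 and 92.1 to 117 CPM, with all 5 higher in TD than in WT. Skeletal muscle markers summed to 5.54 to 14.4 CPM in WT, 20.7 to 80.5 in TA and 20.5 to 296 in TD, with 10 of 12 higher in TD than in WT and 2 not tested. Macrophage markers summed to 256 to 720, 125 to 528 and 534 to 736 CPM, with 1 of 7 higher in TD than in WT. Beige and brown adipocyte markers summed to 12.6 to 22.1, 12.2 to 15.5 and 11.6 to 14.1 CPM, with Ucp1 at 0 in 7 libraries. Of these 4 markers, Dio2 was lower in TD and in TA than in WT, Prdm16 was not called, and Ucp1 and Cidea were not tested. These are bulk samples, in which fewer cells of a type and less RNA per cell cannot be told apart.

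The stretches before the start sites of 6 members are shown because the mutated protein is a transcription factor, namely those of the 4 members with the AGGTCA element that it binds and of 2 members without it. With its partner RXR, PPARγ binds a pair of these elements spaced by a single base. Promoter windows of 300 bases (250 before to 50 after a start site) were available from RefSeq (build GRCm38.p6) for 9 of the 10 members, in 12 windows. Below, each sequence reads 5′ to 3′ on the strand of its gene, cut to the part that lies in no annotated exon, and capitals mark the AGGTCA element, here in its reverse complement TGACCT. Among the members with the element, Coq8a is given for the inner of its listed start sites, at chr1:180193486-180193602 (minus strand), and Coq7 at chr7:118533357-118533606 (minus strand). Coq4 is given at chr2:29787243-29787492 (plus strand) and Coq10a, for the outer of its listed start sites, at chr10:128370038-128370287 (minus strand). For Coq8a and Coq10a the start site was chosen because its window held the element. Among those without it, Coq2 is given at chr5:100674285-100674506 (minus strand). Coq3 is given for the outer of its listed start sites, at chr4:21879396-21879645 (plus strand). The window of its inner start site, not shown, did not hold the element either.
Coq8a: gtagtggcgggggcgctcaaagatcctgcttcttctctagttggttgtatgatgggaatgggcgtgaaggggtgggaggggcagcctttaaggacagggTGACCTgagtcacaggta
Coq7: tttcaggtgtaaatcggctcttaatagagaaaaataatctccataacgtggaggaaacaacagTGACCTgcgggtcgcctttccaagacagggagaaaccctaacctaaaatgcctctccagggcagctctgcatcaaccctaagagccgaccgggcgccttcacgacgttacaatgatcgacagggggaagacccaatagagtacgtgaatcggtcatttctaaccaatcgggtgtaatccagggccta
Coq4: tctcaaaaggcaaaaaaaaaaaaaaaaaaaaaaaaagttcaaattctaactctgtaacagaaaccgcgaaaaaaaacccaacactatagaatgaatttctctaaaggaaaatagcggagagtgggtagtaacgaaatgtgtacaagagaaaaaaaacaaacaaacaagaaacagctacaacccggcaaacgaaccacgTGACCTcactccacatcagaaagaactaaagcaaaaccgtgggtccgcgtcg
Coq10a: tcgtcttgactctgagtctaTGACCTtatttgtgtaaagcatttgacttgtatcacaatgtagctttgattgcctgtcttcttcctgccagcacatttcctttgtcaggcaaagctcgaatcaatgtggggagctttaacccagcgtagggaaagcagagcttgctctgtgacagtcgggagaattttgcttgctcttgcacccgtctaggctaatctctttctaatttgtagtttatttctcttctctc
Coq2: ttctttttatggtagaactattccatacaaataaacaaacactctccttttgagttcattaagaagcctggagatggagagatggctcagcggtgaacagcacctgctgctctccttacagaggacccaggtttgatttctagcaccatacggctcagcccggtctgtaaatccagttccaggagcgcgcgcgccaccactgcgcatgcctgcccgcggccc
Coq3: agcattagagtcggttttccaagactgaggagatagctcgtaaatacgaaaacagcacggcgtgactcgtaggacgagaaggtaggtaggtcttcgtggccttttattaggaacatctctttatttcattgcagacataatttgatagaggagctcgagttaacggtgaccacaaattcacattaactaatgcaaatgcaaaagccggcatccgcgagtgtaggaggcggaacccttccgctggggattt

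The exact spaced repeat, AGGTCA followed by any base and AGGTCA again, searched on both strands, was found in 0 of the 12 windows and in 0.0396% of all 32851 windows. A single AGGTCA was found in 4 of the 12 windows, those of Coq4, Coq7, the outer start site of Coq10a and the inner start site of Coq8a, against 16.3% of all windows. It lay 18 to 13 bases before the start site in Coq8a, 187 to 182 before it in Coq7, 52 to 47 before it in Coq4 and 230 to 225 before it in Coq10a. The windows of Coq2, Coq3, Coq6, Coq9 and Coq10b and the other windows of Coq8a and Coq10a held none, so the element was found in members that were lower in TD and in Coq10a, which was not called, and was not found in Coq2, which was not called, and in other members that were lower. Other searches, again on both strands, found the YY1 core AAGATGGC in the Coq9 window (2.75% of all windows), the Sp1 element GGGCGG in 4 windows (35.7%), CCAAT in 4 windows (37.4%), CACGTG in 2 windows (7.15%) and the NRF1 core element in 1 window (4.60%). The ERR element TCAAGGTCA (0.423%), CCGGAAGT (3.89%) and TGACGTCA (1.79%) were found in none of the 12. In the member windows CACGTG overlapped AGGTCA in Coq4, and GGGCGG overlapped CCAAT in Coq6. The NRF1 core match and the GGGCGG match of Coq3 lay in the window of its inner start site, which is not shown. A match of letters is a description and not a bound site, and the windows do not cover distant enhancers.

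**Figure D1:**
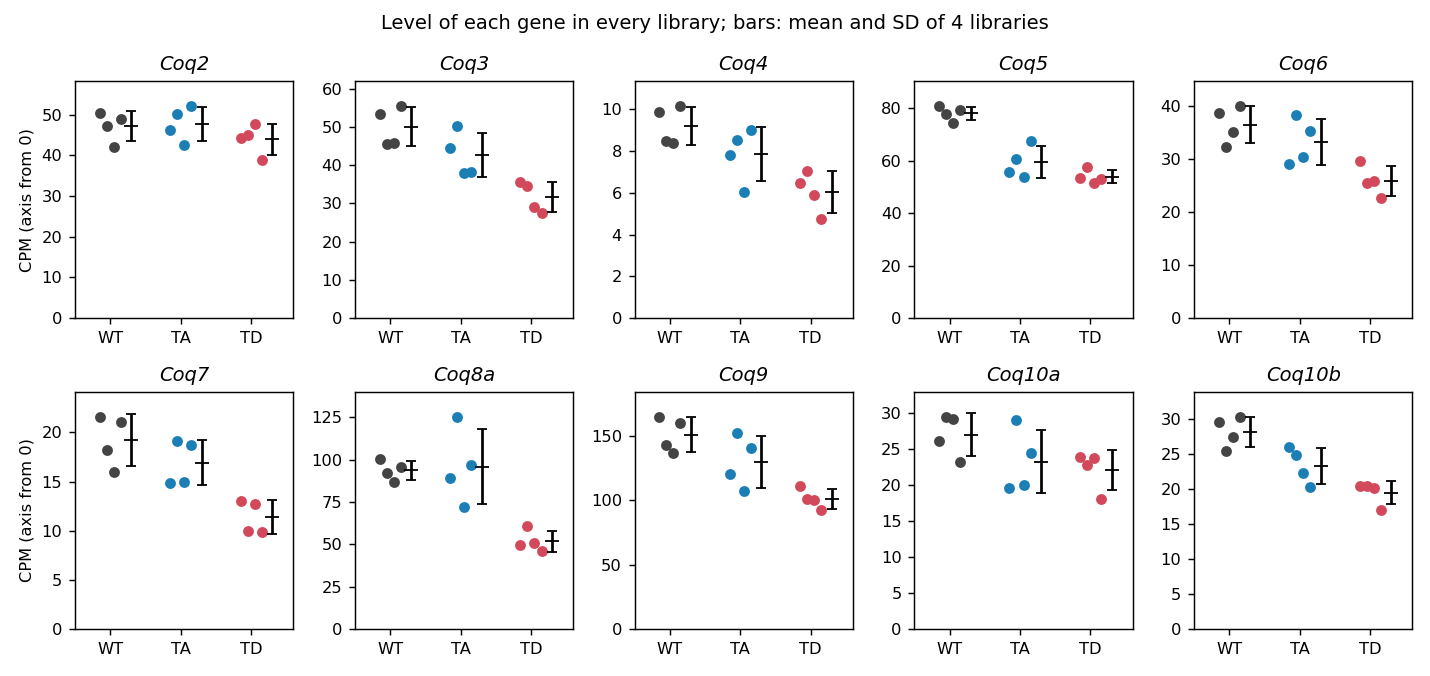
Level of each of the 10 genes in CPM (vertical axes from 0, each with its own range) in the WT, TA and TD libraries; a point is 1 library and the bar beside it the mean and SD of 4. For Coq3, Coq4, Coq5, Coq6, Coq7, Coq8a, Coq9 and Coq10b all 4 TD points lie below all 4 WT points.

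Coq8a encodes an atypical kinase with ATPase activity that is needed for coenzyme Q synthesis without being one of its catalytic steps. In the order of replicates 1 to 4, it had 100.5, 92.1, 86.9 and 95.8 CPM in WT, 89.3, 125.2, 71.9 and 96.9 CPM in TA, and 49.7, 60.7, 50.8 and 46.0 CPM in TD. Every TD library was below every WT and every TA library, and TA spread more widely than WT, with replicate 2 high and replicate 3 low. Coq8a fell by 44.8% from WT to TD (log2 fold change -0.86, SE 0.13, adjusted p = 0.000262) and its log2 fold change of TD against TA was -0.89 (SE 0.13, adjusted p = 0.000301). Between TA and WT its log2 fold change was 0.031 with a 95% interval from -0.24 to 0.30. In TD against WT, 1.77% of all genes tested had a lower log2 fold change than Coq8a. The gene lies at chr1:180165238-180199602 (GRCm38, minus strand), and 366 bases of its exons (6.91%) are shared with Cdc42bpa on the opposite strand, whose log2 fold change of TD against WT was 0.12 (adjusted p = 0.295).

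Coq8b, the paralog of Coq8a, had 66.0 to 77.7 CPM in WT, 43.1 to 70.7 in TA and 46.5 to 57.0 in TD. It was lower in TD than in WT (log2 fold change -0.50, SE 0.12, adjusted p = 0.00656), with an adjusted p of 0.108 for TA against WT and of 0.345 for TD against TA. The ratio of Coq8a to Coq8b counts within a library, which does not depend on how libraries are scaled, was 1.22 to 1.40 in WT, 1.37 to 1.9 in TA and 0.872 to 1.25 in TD. TD thus lay below TA without overlap, while TD replicate 2 fell inside the WT range. The ratio was chosen after the values of the paralogs had been seen and was given no test.

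Coq2 makes the step that joins ring and tail, attaching the isoprenoid chain to the ring precursor. It had 50.5, 47.3, 42.1 and 49.0 CPM in WT, 46.2, 50.2, 42.5 and 52.0 in TA, and 44.3, 45, 47.7 and 38.8 in TD. The genotypes overlapped throughout. Its log2 fold change of TD against WT was -0.10 (95% interval -0.29 to 0.080, adjusted p = 0.402), of TA against WT 0.015 (-0.17 to 0.20) and of TD against TA -0.12 (-0.30 to 0.066). The intervals for TD against WT and TD against TA exclude a fall of the size seen for Coq8a.

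Coq6 and Coq7 hydroxylate the ring, Coq6 as a flavin enzyme and Coq7 as an iron enzyme that acts late in the pathway. Coq6 had 38.6, 32.3, 35.1 and 39.9 CPM in WT, 29.0, 38.3, 30.3 and 35.4 in TA, and 29.7, 25.5, 25.8 and 22.7 in TD. All TD libraries were below all WT libraries, while the highest TD library was above the lowest TA library. The log2 fold change of Coq6 was -0.49 for TD against WT (SE 0.11, adjusted p = 0.00272) and -0.36 for TD against TA (SE 0.11, adjusted p = 0.0305).

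Coq7 had 21.6, 18.3, 15.9 and 21.1 CPM in WT, 14.9, 19.2, 14.96 and 18.7 in TA, and 12.99, 9.96, 12.7 and 9.90 in TD. Here TD lay below WT and below TA without overlap. After Coq8a, Coq7 had the lowest log2 fold change among the members in both comparisons, -0.75 for TD against WT (SE 0.13, adjusted p = 0.000766) and -0.57 for TD against TA (SE 0.14, adjusted p = 0.00964).

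Coq9 is a lipid-binding protein that presents the substrate to Coq7. It had 164.5, 142.6, 136.7 and 159.9 CPM in WT, 120.4, 152.1, 106.9 and 140.6 in TA, and 110.9, 100.7, 99.8 and 92.2 in TD. The TD libraries were below all WT libraries, and TD replicate 1 was above TA replicate 3. Coq9 fell by 33.1% from WT to TD (log2 fold change -0.58, SE 0.10, adjusted p = 0.000667), and its log2 fold change of TD against TA was -0.37 (SE 0.10, adjusted p = 0.022).

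Coq3 and Coq5 are the methyltransferases of the ring, Coq3 acting on its oxygens and Coq5 on carbon. Coq3 had 53.3, 45.6, 45.8 and 55.4 CPM in WT, 44.5, 50.1, 38.0 and 38.2 in TA, and 35.6, 34.5, 29.0 and 27.6 in TD. TD was below both other genotypes without overlap, while TA and WT overlapped. The log2 fold change of Coq3 was -0.66 for TD against WT (SE 0.11, adjusted p = 0.000458), -0.43 for TD against TA (SE 0.11, adjusted p = 0.0138) and -0.23 for TA against WT (SE 0.11, adjusted p = 0.199).

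Coq5 had 80.7, 77.7, 74.5 and 79.2 CPM in WT, 55.6, 60.6, 53.9 and 67.5 in TA, and 53.5, 57.8, 51.7 and 53.1 in TD. Both mutants were below every WT library and overlapped each other, a pattern that no other member had. Its log2 fold change was -0.53 for TD against WT (SE 0.076, adjusted p = 0.00019) and -0.39 for TA against WT (SE 0.075, adjusted p = 0.00283). Between TD and TA it was -0.14, with a 95% interval from -0.30 to 0.023 and an adjusted p of 0.233. Coq5 also varied least within genotypes among the 10, with an SD of 0.0971 in log2 CPM.

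Coq4 is needed for the complex that the ring enzymes form. It had 9.85, 8.48, 8.37 and 10.1 CPM in WT, 7.83, 8.54, 6.06 and 8.99 in TA, and 6.46, 7.05, 5.90 and 4.74 in TD. TD was below WT without overlap and overlapped TA. The log2 fold change was -0.61 for TD against WT (SE 0.16, adjusted p = 0.00826) and -0.38 for TD against TA (SE 0.16, adjusted p = 0.112). The counts of Coq4 are uncertain, since 921 bases of its exons (27.1%) are shared with Trub2 on the opposite strand, which had the higher mean count (457.8 against 141.3), and no source used here says whether counting used the strand. Trub2 itself had a log2 fold change of TD against WT of -0.27 (adjusted p = 0.0823).

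Coq10a and Coq10b bind coenzyme Q and are needed for its function in respiration, but carry out no known step of its synthesis. Coq10a had 26.1, 29.4, 29.2 and 23.2 CPM in WT, 19.6, 29.0, 19.96 and 24.4 in TA, and 23.9, 22.7, 23.8 and 18.0 in TD. The genotypes overlapped, and its log2 fold change of TD against WT was -0.29 (95% interval -0.56 to -0.012, adjusted p = 0.109), so that a fall as large as that of its paralog lies within the interval.

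Coq10b had 29.5, 25.5, 27.3 and 30.2 CPM in WT, 26.0, 24.8, 22.2 and 20.3 in TA, and 20.4, 20.4, 20.04 and 17.0 in TD. TD was below WT without overlap, with replicates 1 to 3 close together and replicate 4 lower. The log2 fold change was -0.53 for TD against WT (SE 0.099, adjusted p = 0.00102), -0.27 for TA against WT (SE 0.098, adjusted p = 0.0895) and -0.26 for TD against TA (SE 0.10, adjusted p = 0.0855).

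**Figure D2:**
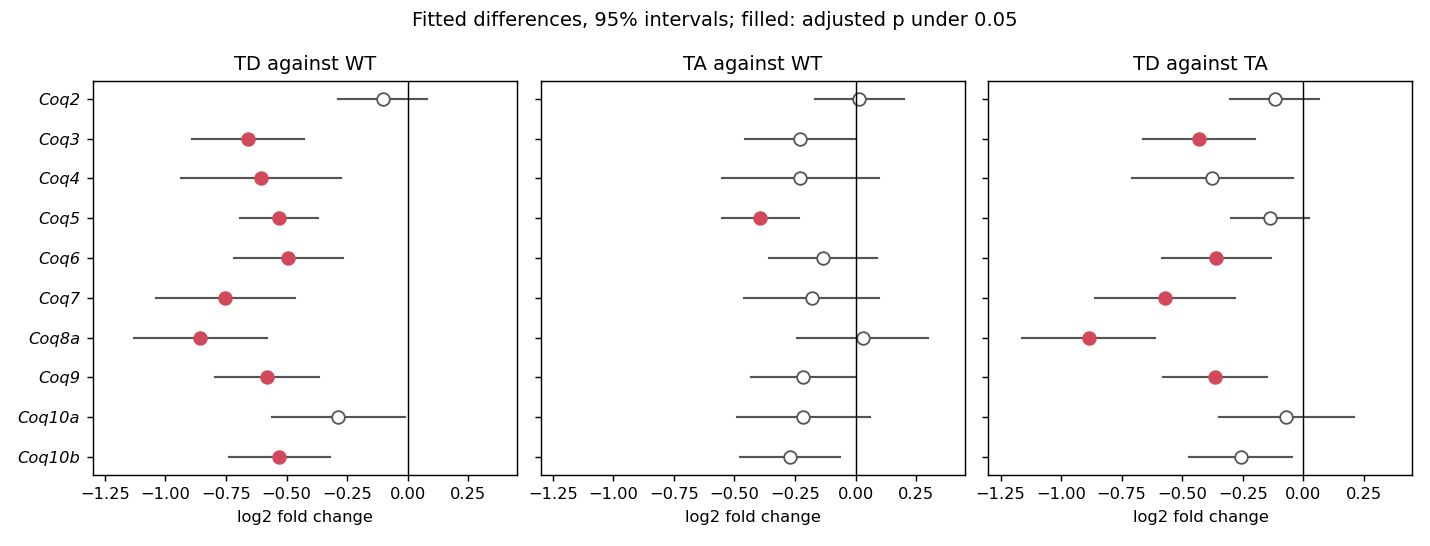
Fitted log2 fold change of each gene (horizontal axis) for TD against WT (left), TA against WT (middle) and TD against TA (right), with 95% intervals as lines; filled points have an adjusted p under 0.05. The filled points number 8, 1 and 5, and all of them lie left of 0.

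The comparison of TD with WT asks what the phosphomimetic allele changes. It called 8 of the 10 members, all lower, where 29.2% of all genes tested were called, 15.1% higher and 14.2% lower. In 8 members the TD and WT libraries did not overlap, with TD lower, where 32.2% of all genes had no overlap and 16.4% none with TD lower. The call was made for the same 8 members with each TD or WT library left out in turn. It was also made for them under each planned setting of normalization, filter and test.

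The scaling to the adipocyte markers was the exception. The mean log2 fold change of those 8 markers was -0.52 for TD against WT, with single markers from -0.97 to -0.28, and setting their mean to be equal in all libraries raised the median of all genes by 0.515. The shift is the same for all genes of a library, so the members kept their order and a member stayed below 0 only where its fall exceeded the shift. On that scale Coq8a was lower (log2 fold change -0.34, adjusted p = 0.00951), Coq2 was higher (0.41, adjusted p = 0.00334) and the other 8 did not pass the test. The median of the members was -0.039, and 9455 of 15117 genes were called higher and 183 lower. Relative to the adipocyte markers, then, the members together were about level between TD and WT. The markers may themselves respond to the mutated receptor, so this scale is not a measure of adipocyte content. The part of cell composition in the fall of the 8 genes was not tested.

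The comparison of TA with WT asks what an unphosphorylatable site changes. It called 1 of the 10 members, Coq5, lower, where 11.1% of all genes tested were called, 6.72% higher and 4.41% lower. In 1 member, again Coq5, the libraries did not overlap, where 13.6% of all genes had no overlap and 5.86% none with TA lower. The median of the members was -0.22, and that of all genes -0.0056. Of the 9 members not called, Coq9 (adjusted p = 0.197) and Coq10b (adjusted p = 0.0895) had an unadjusted p under 0.05. The mean of the adipocyte markers differed by 0.11 between TA and WT, and scaled to them Coq5 and Coq9 were called lower. Coq2 and Coq8a, whose fitted log2 fold changes were slightly above 0, were at -0.080 and -0.088 on that scale.

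The comparison of TD with TA sets the alleles against each other. It called 5 of the 10 members lower, Coq3, Coq6, Coq7, Coq8a and Coq9, where 16.7% of all genes tested were called, 7.33% higher and 9.37% lower. In 3 members, Coq3, Coq7 and Coq8a, the libraries did not overlap, where 19.9% of all genes had no overlap and 10.6% none with TD lower. The median was -0.36, and that of all genes 0.023. Coq7 and Coq8a were called with each TD or TA library left out in turn. However, 2 members in all were called without TA replicate 2, TD replicate 3 or TD replicate 4, and 3 without TD replicate 2. TA replicate 2 had the highest summed adipocyte markers of the 12 libraries and TD replicate 4 the lowest. Scaled to the adipocyte markers, which raised the median of all genes by 0.601, Coq8a was lower in TD (-0.25, adjusted p = 0.0335), whereas Coq2, Coq5, Coq6, Coq9, Coq10a and Coq10b were called higher and the median was 0.26.

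**Figure D3:**
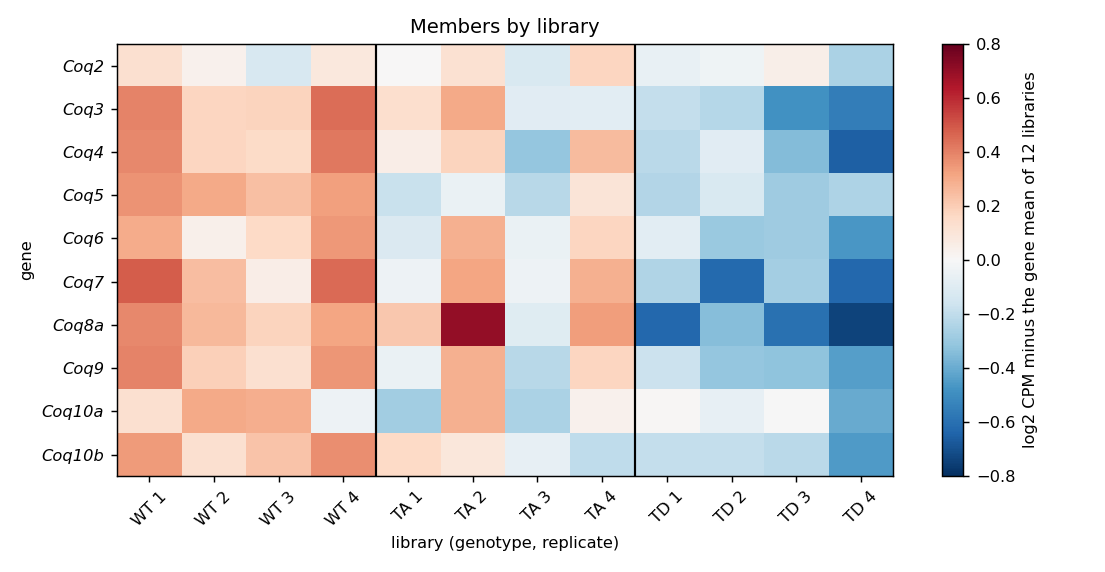
Log2 CPM of each gene minus its mean over the 12 libraries (color scale from -0.8 to 0.8), with genes in rows and libraries in columns, grouped as WT, TA and TD. Coq8a in TA replicate 2 is the highest value and Coq8a in TD replicate 4 the lowest.

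Averaged over the 10 genes, log2 CPM centered on each gene's own mean was 0.24 ± 0.090 in WT (SD, n = 4), 0.054 ± 0.17 in TA and -0.30 ± 0.13 in TD. The TA libraries ran from -0.15 in replicate 3 to 0.25 in replicate 2, so that replicate 2 lay among the WT libraries and replicate 3 close to the highest TD library, at -0.20. Both measures were taken from the same libraries, and within TA the order of the 4 libraries by the mean of the members was also their order by summed adipocyte markers (15120, 17140, 19120 and 20830 CPM). At similar marker sums, WT libraries had higher values of the members than TA libraries. The part of adipocyte content in these values was not tested.

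**Figure D4:**
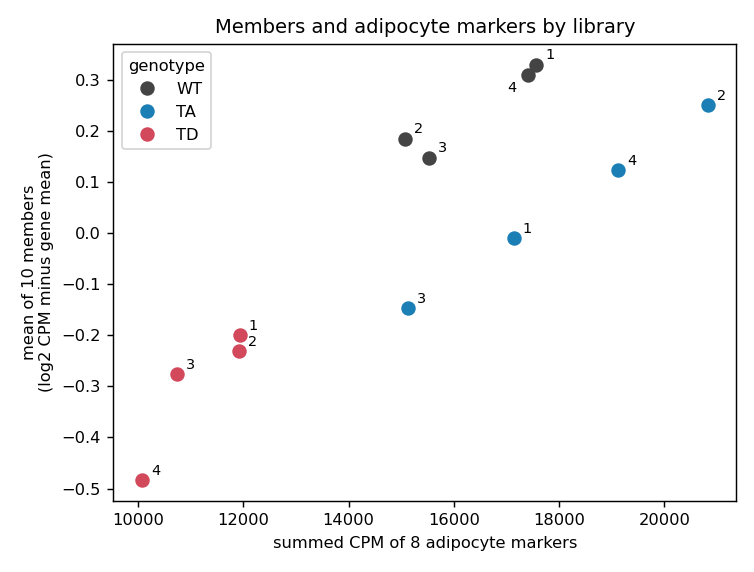
Mean of the 10 genes (log2 CPM minus the gene's mean over the 12 libraries, vertical axis) against the summed CPM of the 8 adipocyte markers (horizontal axis); a point is 1 library, numbered by replicate and colored by genotype. The 4 TD libraries lie at the lower left, and the WT libraries lie above the TA libraries of similar marker sums.

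Among 10536 other genes that averaged 5 CPM or more, those whose pattern over the 12 libraries was most like the mean of the members were Ndufs1, a core subunit of complex I (root-mean-square difference 0.0412 in log2 CPM), Foxred1, an assembly factor of complex I (0.0458), and Echs1, the enoyl-CoA hydratase of mitochondrial fatty acid oxidation (0.0547). By the same measure Coq9, itself part of that mean, was at 0.0496 and the other members at 0.0738 (Coq6) to 0.237 (Coq8a).

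Levels of different genes were compared per kilobase of exon. In WT the highest was Coq9 with 49.4 CPM per kb (libraries 44.7 to 53.8), followed by Coq5 with 25.7 (24.6 to 26.6). Coq2 with 18.0 (16.1 to 19.2), Coq8a with 17.7 (16.4 to 19.0) and Coq3 with 16.7 (15.2 to 18.5) had overlapping libraries, as did Coq6 with 11.6 (10.3 to 12.7) and Coq10a with 10.5 (9.0 to 11.4). Coq10b followed with 5.85 (5.30 to 6.29), and the lowest were Coq7 with 2.99 (2.48 to 3.35) and Coq4 with 2.71 (2.46 to 2.98), which overlapped. The order of the means was the same in TA. In TD, Coq8a with 9.79 CPM per kb came after Coq3 with 10.6, Coq6 with 8.25 after Coq10a with 8.59, and Coq7 with 1.77 after Coq4 with 1.78, and the libraries of each of these pairs overlapped. These levels use all annotated exons, so they are lower where long exons are little used.

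Partners of the members in synthesis and transport were listed from textbook knowledge. Of 9 listed, 8 were tested, and Fdx2, a ferredoxin that feeds electrons to Coq6, was not, with 1 to 14 counts in a library. The counts of Fdx2 are uncertain, since 72.7% of its exon length is shared with Gm38431 and 36.3% with Gm49373, both on the same strand. In TD against WT 5 of the 8 were lower and 0 higher: Hpdl (log2 fold change -0.67, adjusted p = 0.026), which takes part in making the ring precursor, Coq8b, Pdss2 (-0.47, adjusted p = 0.0259), a subunit of the enzyme that makes the tail, and Stard7 (-0.41, adjusted p = 0.000762) and Parl (-0.32, adjusted p = 0.0124), the lipid carrier that moves coenzyme Q from mitochondria and the protease that processes it. Pdss1, the other subunit of the tail enzyme, Fdxr and Pptc7, a phosphatase of the matrix, did not pass the test, with log2 fold changes of -0.19, 0.078 and -0.10. In TA against WT 1 was lower, Pptc7 (-0.28, adjusted p = 0.0489), and in TD against TA 2 were lower, Stard7 (-0.24, adjusted p = 0.0336) and Parl (-0.29, adjusted p = 0.034). The counts of Pptc7 and Pdss1 are uncertain too, since the strand setting is not given. Pptc7 shares 21.2% of its exon length with Rad9b on the opposite strand (mean counts 653.3 and 133.8). Pdss1 shares 4.57% with Abi1, also on the opposite strand (mean counts 147.4 and 1327). The median of the 8 was -0.36 for TD against WT, -0.21 for TA against WT and -0.13 for TD against TA.

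The mevalonate pathway supplies the isoprenoid units of the tail. Of its 8 genes, 3 were lower in TD than in WT (Acat2, Hmgcs1 and Pmvk) and 0 were higher, with a median of -0.14. In TA against WT 1 was higher, Pmvk (log2 fold change 0.47, adjusted p = 0.0177), which phosphorylates phosphomevalonate, and the median was 0.19. In TD against TA 4 were lower (Acat2, Pmvk, Mvd and Fdps), with the largest fall in Pmvk (-0.98, adjusted p = 6.72e-05) and a median of -0.33. Of the 4 enzymes on the other branches from farnesyl diphosphate, Fdft1, the enzyme that opens the sterol branch, was lower in TD than in WT (-0.48, adjusted p = 0.00811) and than in TA (-0.39, adjusted p = 0.0397), and Ggps1, Dhdds and Nus1 were not called.

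The enzymes that use coenzyme Q were lower in TD as well. Of 11 enzymes listed that reduce it outside complex I, 9 were tested, Prodh had 0 to 2 counts in a library, and 1 was not analysed here. All 9 were lower in TD than in WT, with a median of -0.57, and the largest fall was in Sdhb, the iron-sulfur subunit of succinate dehydrogenase (log2 fold change -0.77, adjusted p = 0.000198). In TA against WT 1 was higher and 2 were lower. The one that rose was Gpd2, the mitochondrial glycerol-3-phosphate dehydrogenase (0.63, adjusted p = 0.00294), and Aifm2, which reduces coenzyme Q outside mitochondria, had the larger fall (-0.64, adjusted p = 0.000666). In TD against TA 7 of 9 were lower, Gpd2 most of all (-1.19, adjusted p = 1.18e-05).

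Gpd2 had 102.1, 105.1, 95.1 and 105.9 CPM in WT, 182.3, 184.1, 147.7 and 116.1 in TA, and 79.6, 70.1, 62.9 and 62.9 in TD. The 3 genotypes did not overlap, with TA highest and TD lowest, an order that none of the 10 members showed without overlap. Of the 9 complex III subunits, which oxidise coenzyme Q, all 9 were lower in TD than in WT, with a median of -0.72 and the largest fall in Uqcrq (-1.08, adjusted p = 8.02e-05). In TA against WT 0 of 9 passed edgeR's test, 2 of them with an unadjusted p under 0.05, and the median was -0.17. In TD against TA 8 were lower, Uqcr11 most (-0.99, adjusted p = 3.79e-05). Among these subunits Uqcrc1 had few counts, 61 to 162 in a library, where Uqcrc2 had 4210 to 8424. Exons shared with other genes were not looked for in the complex III list. Shares of all genes called are those given for the members in each comparison, and these lists were not tested as sets.

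**Figure D5:**
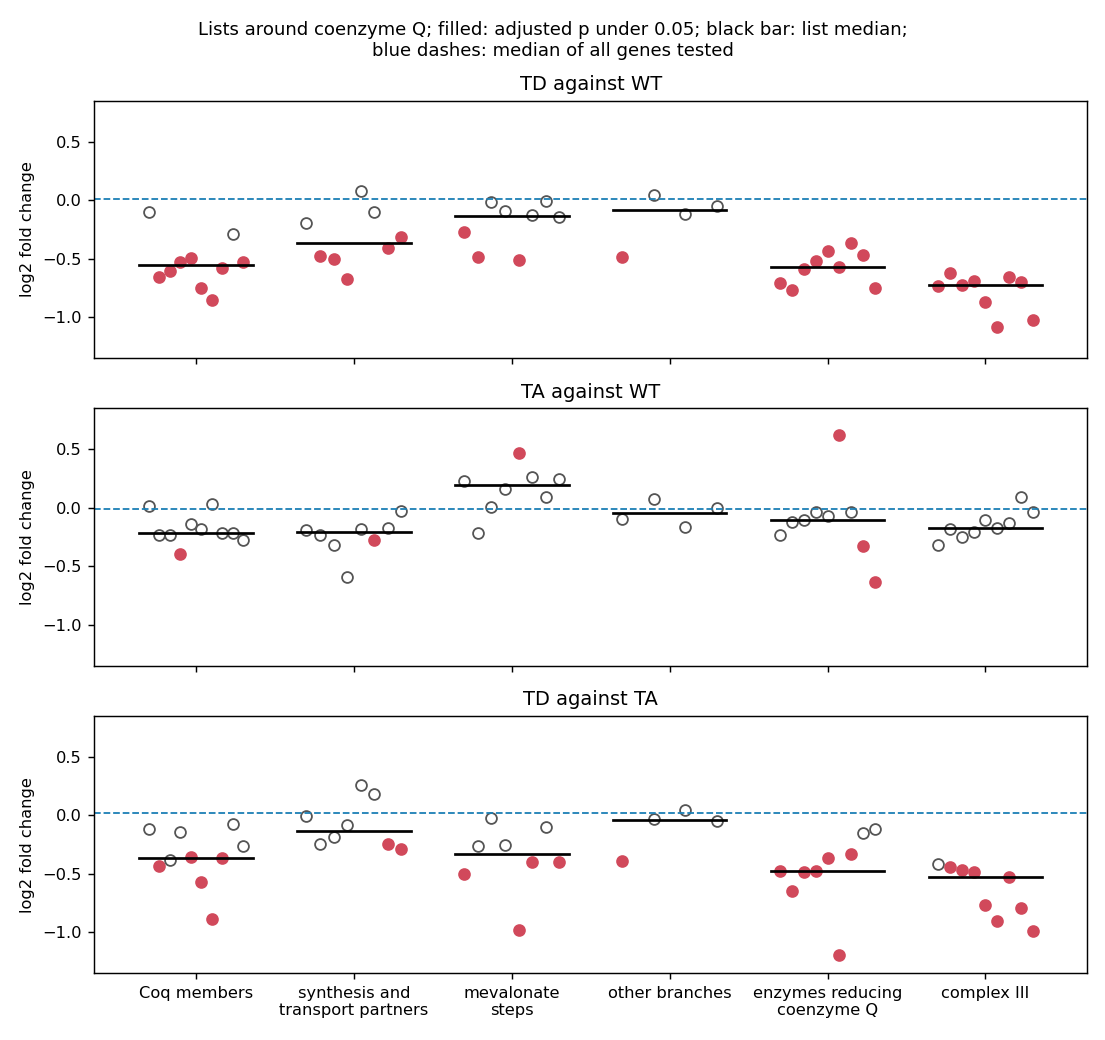
Log2 fold change (vertical axes) of the genes of each list, for TD against WT (top), TA against WT (middle) and TD against TA (bottom); a point is 1 gene, filled points have an adjusted p under 0.05, the black bar is the median of the list and the dashed line the median of all genes tested. In TD against WT all 9 complex III points and all 9 points of enzymes that reduce coenzyme Q are filled and below 0, whereas 3 of 8 mevalonate points are.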

How the data were processed

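Libraries were sequenced by the authors on a NovaSeq instrument, and the deposited values are raw read counts per gene, without normalization. The submitters' processing notes name bcl2fastq 2.17.1.14, cutadapt 1.9.1, HISAT2 2.0.1 and HTSeq 0.6.1 with build GRCm38. The counting mode and strand setting are not given in the sources used here, so overlapping genes are uncertain. Groups and replicate numbers were taken from the sample titles.

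The counts were analysed in R 4.3.3 with edgeR 4.0.16 and limma 3.58.1. Genes were kept by filterByExpr (minimum count 10, minimum total 15), normalized by TMM (factors 0.957 to 1.04) and fitted by glmQLFit to all 12 libraries, and glmQLFTest was two-sided. CPM use TMM-scaled library sizes, and log2 CPM a prior count of 2. SE is the absolute log2 fold change divided by the square root of F, and 95% intervals use the t quantile of the fit. Common biological variation was 12.9%, and replicates differed by more than sampling noise (chi-square 4.95 to 38.7 per degree of freedom). Depth, 16553324 to 20324286 counts, limits precision for counting error only. DESeq2 1.42.0, other normalizations and filters, the replicate block and single libraries left out were alternatives.

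Positions and exon lengths came from GENCODE M21 (99.7% of IDs found), promoters from RefSeq. On simulated data for TD against WT (14921 genes), 56.9%, 81.1% and 93.7% of genes changed by a log2 fold of 0.5, 1 and 1.5 were called, and 4.40% of calls were unchanged genes. Far fewer genes were changed in the simulation than were called between TD and WT, so these rates do not carry over to the data.

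All 10 members were named. Partners were all named, the per-library values of Gpd2 were chosen after they were seen, and of the other lists the largest rise and fall called in each comparison and short sets of called genes were named. The members were chosen by symbol and the other lists from textbook knowledge, both with earlier results of these data known. A result that the lists would name is not reported here.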

Additional observations from a re-analysis of the deposited data

Results flagged for a closer look

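In 30 groups of 4 libraries (the 10 genes in 3 genotypes), 1 held a library far from the others. Coq10b in TD replicate 4 had 17.0 CPM against 20.04 to 20.4 in the other TD libraries, a gap of 0.891 of the group's range, above Dixon's 95% critical value for 4 samples. Chance flags about 1 in 20 such groups. Without TD replicate 4 the log2 fold change of Coq10b was -0.47 for TD against WT, still called, in place of -0.53. The same library had the lowest summed adipocyte markers (10100 CPM) and the highest summed fibroblast and preadipocyte markers (23400 CPM), and their part in the value was not tested.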

How the results depend on the processing

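Scaling to the 8 adipocyte markers, added after the data had been seen, changed the most. It called 2 members in TD against WT (1 higher, 1 lower), 2 in TA against WT, both lower, and 7 in TD against TA (6 higher, 1 lower), with medians of -0.039, -0.32 and 0.26, and 9638, 915 and 11251 genes in all. The median of all genes moved by 0.515, -0.0854 and 0.601 on the log2 scale. It reversed, for TD against WT, Coq2 (0.41), Coq6 (0.023) and Coq10a (0.21); for TA against WT, Coq2 (-0.080) and Coq8a (-0.088); and for TD against TA, Coq2 (0.49), Coq3 (0.18), Coq4 (0.24), Coq5 (0.47), Coq6 (0.25), Coq7 (0.046), Coq9 (0.26), Coq10a (0.55) and Coq10b (0.34). The scaling shifts every gene by the same amount in a library, so fitted differences between members changed little. They were not identical, and in TA against WT Coq2 went from 0.015 to -0.080 and Coq8a from 0.031 to -0.088.

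In each comparison, single libraries of the 2 genotypes compared were left out in turn. Members called then ran from 8 to 8 for TD against WT, 1 to 1 for TA against WT and 2 to 6 for TD against TA (6 without TA replicate 3). All genes called ran from 3121 to 4413, from 1160 to 1939 and from 1422 to 3526. The lowest counts for TD against TA were 1422 without TA replicate 2, 1432 without TD replicate 4 and 1586 without TD replicate 3. Medians ran from -0.60 to -0.51, from -0.29 to -0.13 and from -0.43 to -0.28. Values near 0 changed sign: for TA against WT, Coq2 without WT replicate 3 (-0.041), TA replicate 2 (-0.013) or TA replicate 4 (-0.038; range -0.041 to 0.068) and Coq8a without WT replicate 3 (-0.010) or TA replicate 2 (-0.13; range -0.13 to 0.15); for TD against TA, Coq10a without TA replicate 2 (0.056) or TD replicate 4 (0.015; range -0.14 to 0.056).

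Library totals in place of TMM left 4 members called in TD against TA, losing Coq6 (adjusted p = 0.0705), and turned Coq10a (0.0080). Of the genes called, 64.6% were then higher in TD than in WT (51.5% with TMM) and 64.7% higher in TD than in TA (43.9% with TMM, and 54.3% without a filter on low counts). The other planned settings kept 8, 1 and 5 members. Replicate numbers did not pair the libraries (correlations -0.237 to 0.196, 2 of 12 above 0.1). The closest library was sought in WT and in TA for TD libraries, and in WT for TA libraries. It had the same replicate number in 2 of these 12 searches. A replicate block called the same 8, 1 and 5 members, and 4246, 1560 and 2488 genes. Depth limits Coq4 most, which had the fewest counts of the members and the widest 95% interval for TD against WT (-0.93 to -0.28).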
